A study of Mus musculus with 64 samples.

Results

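The 10 genes described here, Gm5506, Serpina1f, Spink8, Fabp4, Ephb1, Cd52, Akd1, Crisp1, Slc39a8 and Cuzd1, were chosen from the 26385 genes listed in every RNA-Seq table because their read counts differed between the whole testis libraries labelled Miwi2 KO (Miwi2-/-) and those labelled Miwi2 het (Miwi2+/-). All 10 were listed in the tables of all 47 RNA-Seq libraries, although several had 0 reads in some of them. The values that chose them were the counts of these 4 libraries, so every Miwi2 value below is a description and carries no test. The levels in the Dnmt3l line, the Morc1 line and sorted germ cells were not used in the choice.

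The study compared gene expression in testes of 3 mouse mutants that lack a factor of transposon silencing in the male germ line. MIWI2 (gene Piwil4) is a nuclear PIWI protein that is loaded with piRNAs, DNMT3L is a catalytically inactive partner of the de novo DNA methyltransferases, and MORC1 is a GHKL ATPase. The Miwi2 line had 2 KO and 2 het libraries of whole testis at P10.5, and the Dnmt3l line, labelled DNMT3L, had 3 KO, 3 het and 3 WT libraries of whole testis at P10.5. The Morc1 line carried the Morc1 tg allele, in which a transgene removed exons 2 to 4, and was kept on an FVB/N background. It had 14 whole testis libraries, of which 8 were from P10.5 (3 KO, 2 het and 1 WT, and 1 het and 1 WT that are labelled preliminary, which were left out of the genotype and age contrasts and of their control ranges) and 6 from P14.5 (3 KO and 3 het). Morc1 KO, het and WT stand for tg/tg, tg/+ and +/+. The other 20 libraries were of sorted germ cells of the Morc1 line, with 2 KO and 2 het at E16.5 and at E18.5, 2 KO and 3 het at P2.5, and 3 KO and 4 het at P10.5. Cells up to P2.5 were sorted by the green fluorescence of an Oct4-IRES-eGfp reporter, for which the line was crossed to mice of mixed background, and those at P10.5 by high EPCAM and absent MHC class I. Each library came from 1 mouse, so the spread between libraries is that between mice together with that of library preparation. The strain backgrounds and the removed exons of the Dnmt3l and Miwi2 alleles are not given in the sources used here. Line, background and batch of library preparation cannot be told apart in any comparison between lines.

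The tables give, for each gene, the reads counted on it and an RPKM value (the count scaled to exon length and to the mapped reads of the library), which allows levels to be set side by side between genes. The whole testis libraries held between 22509570 and 42137954 reads on genes, and the sorted libraries, between 2413679 and 14918478. Piwil4 itself went against the labels of the Miwi2 line, because it was read more in the libraries labelled Miwi2 KO (1558 and 1636 reads, 10.7 and 11.5 RPKM) than in those labelled Miwi2 het (941 and 1034 reads, 6.65 and 7.01 RPKM). Which exons these reads lie on is not in gene counts, so this checks neither label. Transposon reads, another readout that bears on these labels, were not analysed here, and every direction given for this line rests on the labels as deposited. In the other lines the targeted gene was lower in the KO libraries, with Dnmt3l at 0.0370 to 0.0464 RPKM against 0.374 to 1.02 in its controls, and Morc1 at 2.06 to 2.41 RPKM at P10.5 against 6.29 to 10.2.

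The members have different known roles. Spink8 is a Kazal-type serine protease inhibitor, Crisp1 a cysteine-rich secretory protein that binds to sperm in the epididymis, and Serpina1f a relative of alpha-1 antitrypsin. Cuzd1 is a membrane protein with CUB and zona pellucida domains, and Cd52 a small GPI-anchored glycoprotein of lymphocytes and of the epididymal epithelium. The epididymis is the duct that receives sperm from the testis, and its epithelium secretes protease inhibitors, beta-defensins and lipocalins in segments along its length. Fabp4 is the fatty acid binding protein of adipocytes and of some macrophages and capillaries. Slc39a8 (ZIP8) imports zinc and manganese, Akd1 (now Ak9) is a large adenylate kinase, and Ephb1 is a receptor tyrosine kinase for ephrin-B ligands. Gm5506 is a copy of the enolase gene Eno1, named Eno1b in the current annotation.

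Promoters are printed for the secreted or membrane members whose levels were correlated and for which the RefSeq promoter table (GRCm38.p6) had an entry. It held Serpina1f, Crisp1 and Cuzd1, and no entry was used for Spink8 or Cd52. Each run is the 250 bases before the start of the gene, 5' to 3' on the gene's strand, and was found exactly once in the mm9 (NCBIM37) chromosome. They lie at chr12:104933740-104933989 (minus strand) for Serpina1f, chr17:40456157-40456406 (minus strand) for Crisp1 and chr7:138465807-138466056 (minus strand) for Cuzd1. Capitals mark a TATA box, TATAAA.
Serpina1f: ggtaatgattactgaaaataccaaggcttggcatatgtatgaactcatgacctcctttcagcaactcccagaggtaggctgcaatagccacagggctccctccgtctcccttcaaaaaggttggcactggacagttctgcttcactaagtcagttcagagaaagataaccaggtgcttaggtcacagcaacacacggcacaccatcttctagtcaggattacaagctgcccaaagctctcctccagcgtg
Crisp1: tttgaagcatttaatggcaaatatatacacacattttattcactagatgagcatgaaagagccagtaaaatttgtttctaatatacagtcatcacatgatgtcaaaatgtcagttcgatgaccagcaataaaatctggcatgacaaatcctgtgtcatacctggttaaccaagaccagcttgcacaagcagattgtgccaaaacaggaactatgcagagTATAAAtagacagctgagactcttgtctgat
Cuzd1: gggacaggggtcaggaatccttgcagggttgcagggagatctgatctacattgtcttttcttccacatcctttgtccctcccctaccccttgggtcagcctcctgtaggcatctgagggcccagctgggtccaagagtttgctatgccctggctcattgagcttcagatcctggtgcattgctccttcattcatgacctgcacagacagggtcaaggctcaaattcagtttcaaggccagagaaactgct
The letters TATAAA were searched on both strands and lay in the Crisp1 promoter only, at bases 31 to 26 before the start. Over 32851 promoters of the same length, 12.4% held them. The androgen receptor half-site AGAACA, searched on both strands, was in none of these 3 windows and in 16.1% of all promoters. A match or its absence describes these letters in this window and nothing further.

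Of the 10 members, 9 were higher and 1, Fabp4, was lower in both libraries labelled Miwi2 KO than in both labelled Miwi2 het. Over the 9 higher members the ratio of mean RPKM, KO over het, ran from 3.65 for Slc39a8 to 82.3 for Gm5506. Between the 2 libraries of one label the ratio for a member was at most 1.26 in the KO and 1.60 in the het libraries. All 10 were also called by edgeR in this contrast, which the choice of members fixed, where 1.23% of the 15997 genes tested were called (116 genes or 0.725% higher and 81 genes or 0.506% lower). The balance of directions over all genes turned with DESeq2 (116 higher and 290 lower), without het replicate 2 (266 higher and 686 lower) and under a block of replicate numbers (2216 higher and 2287 lower). Both KO libraries lay above both het libraries for 25.9% and below them for 20.3% of the 20706 genes with a read in the line.

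**Figure D1:**
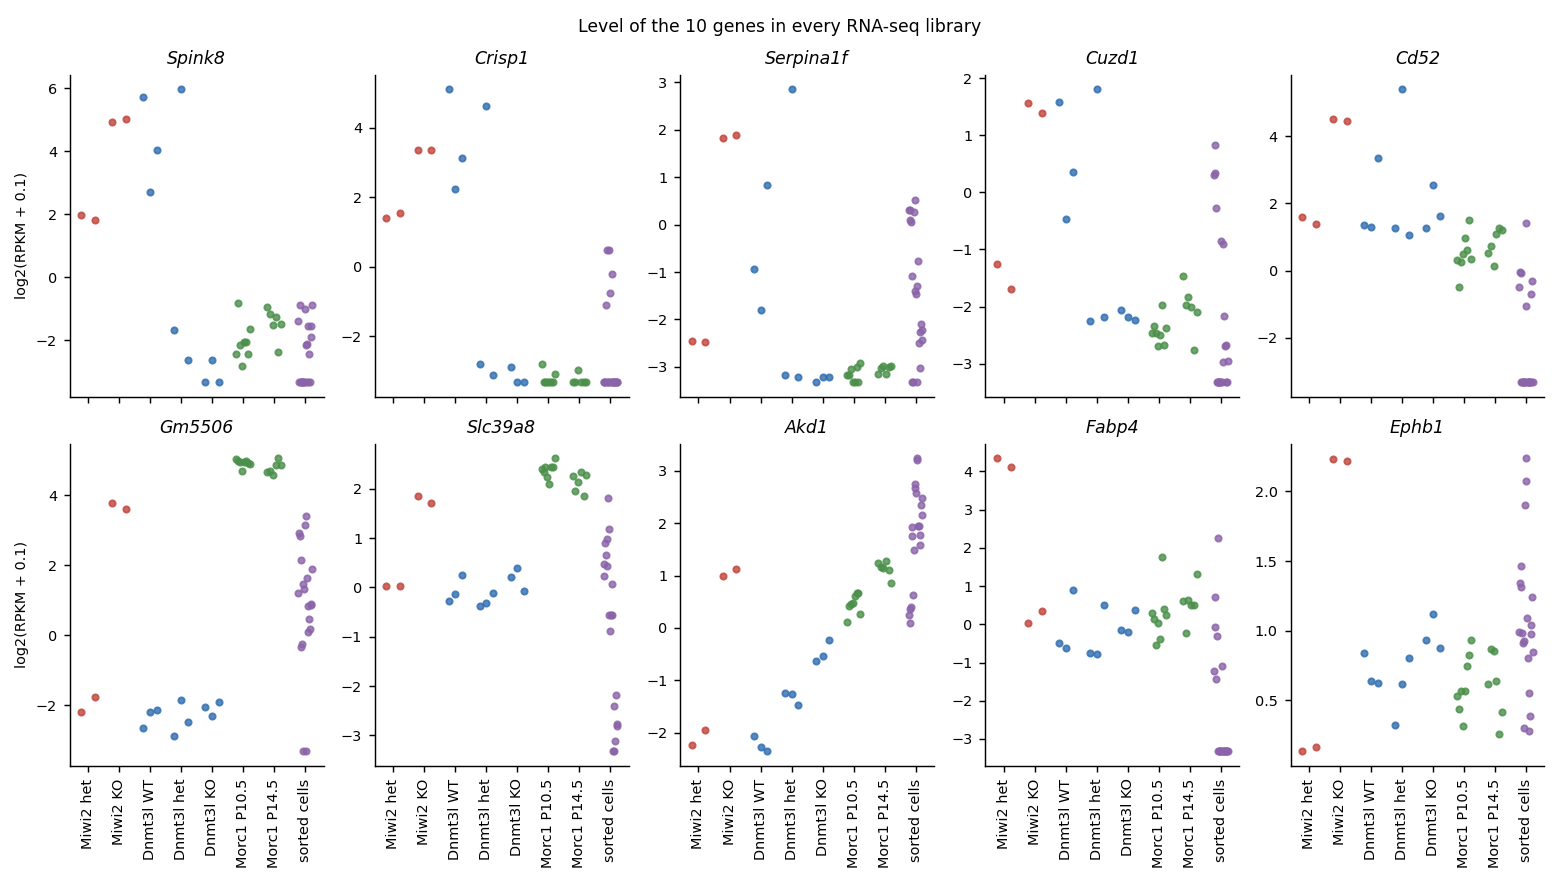
log2(RPKM + 0.1) of the 10 members, 1 panel each, in every RNA-Seq library, by line, with genotype for the Miwi2 and Dnmt3l lines and age for the Morc1 testes, and with all sorted germ cell libraries at 1 position. Each point is 1 library, and the range of the axis differs between panels. Among the testis libraries, Gm5506 and Slc39a8 stay high in all Morc1 libraries and low in all Dnmt3l libraries, while Fabp4 is high in the 2 libraries labelled Miwi2 het alone.

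Spink8, Crisp1, Serpina1f, Cuzd1 and Cd52 are described as 1 group because their levels were correlated over the testis libraries, a grouping made after their values were seen. Pearson's r of log2(RPKM + 0.1) between any pair of them lay between 0.71 and 0.97 over the 27 whole testis libraries, which share lines and batches. Each was several times higher in the libraries labelled Miwi2 KO, but each reached a similar or higher level in single control libraries of the Dnmt3l line and was low in the whole Morc1 line. In all 3 Dnmt3l KO libraries, the first 4 were low.

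Spink8 was at 3.88 and 3.45 RPKM in the libraries labelled Miwi2 het (123 and 114 reads) and at 30.3 and 32.2 RPKM in those labelled Miwi2 KO (986 and 1024 reads). In the Dnmt3l line it was at 52.7, 6.39 and 16.54 RPKM in WT, 0.212, 62.8 and 0.0612 in het, and 0, 0.0607 and 0 in KO libraries. The highest value was therefore that of a Dnmt3l control, het replicate 2, and the control libraries of this line spanned values far below and above both Miwi2 labels. Across the 14 Morc1 testis libraries Spink8 stayed between 0.0414 and 0.470 RPKM.

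Crisp1 was high in the same control libraries. It was at 2.52 and 2.81 RPKM under the Miwi2 het label and at 10.1 and 10.2 RPKM under the KO label. The Dnmt3l WT libraries had 34.3, 4.60 and 8.57 RPKM, the het libraries 0.0443, 24.2 and 0.0160, and the KO libraries 0.0344, 0 and 0. Its highest level was in Dnmt3l WT replicate 1, and the level in Morc1 testes never passed 0.0438 RPKM. An overlapping gene on the same strand, Crisp3, was read at no more than 0.534 RPKM in any library.

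Serpina1f was nearly absent from the libraries labelled Miwi2 het, with 10 reads in each (0.0821 and 0.0788 RPKM), and was at 3.44 and 3.60 RPKM (429 and 439 reads) in those labelled Miwi2 KO. In the Dnmt3l line, the WT libraries had 0.425, 0.186 and 1.70 RPKM, the het libraries 0.0110, 7.15 and 0.00800, and the KO libraries 0, 0.00790 and 0.00740. Only het replicate 2 of that line lay above the Miwi2 KO level. The Morc1 testes had at most 0.0326 RPKM.

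Cuzd1 was at 0.320 and 0.208 RPKM under the Miwi2 het label and at 2.85 and 2.51 RPKM under the KO label. The Dnmt3l WT libraries had 2.88, 0.624 and 1.18 RPKM, the het libraries 0.111, 3.40 and 0.120, and the KO libraries 0.140, 0.119 and 0.112. Thus 2 of the 6 Dnmt3l controls lay above both Miwi2 KO libraries and 2, het replicates 1 and 3, were near the level of the KO libraries of their own line. Cuzd1 overlaps Fgfr2 on the same strand, which was read at up to 5.46 RPKM.

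Cd52 was at 2.90 and 2.52 RPKM under the Miwi2 het label and at 22.6 and 21.7 RPKM under the KO label. Among the Dnmt3l libraries it was at 2.45, 2.34 and 10.1 RPKM in WT, 2.32, 42.2 and 1.98 in het, and 2.32, 5.71 and 2.99 in KO. Cd52 was thus above 10 RPKM in Dnmt3l WT replicate 3 and het replicate 2 alone, and unlike the other 4 genes it kept a base level of 1.98 RPKM or more in every Dnmt3l library. It overlaps Aim1l on the opposite strand, which was read at up to 2.53 RPKM in testis, and the testis kit does not mark strand. The summed level of 15 markers of blood and leukocytes was 190 to 219 RPKM in het and 228 to 252 RPKM in KO libraries, led by Hbb-b1 and Lyz2, and 59.2 to 64.8 and 77.1 to 84.5 RPKM without these 2 genes. Of these markers, 5 (33.3%) were higher and 2 (13.3%) lower in both KO than in both het libraries, against 25.9% and 20.3% of all genes, each had reads under both labels, and their part in the level of Cd52 was not tested.

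**Figure D2:**
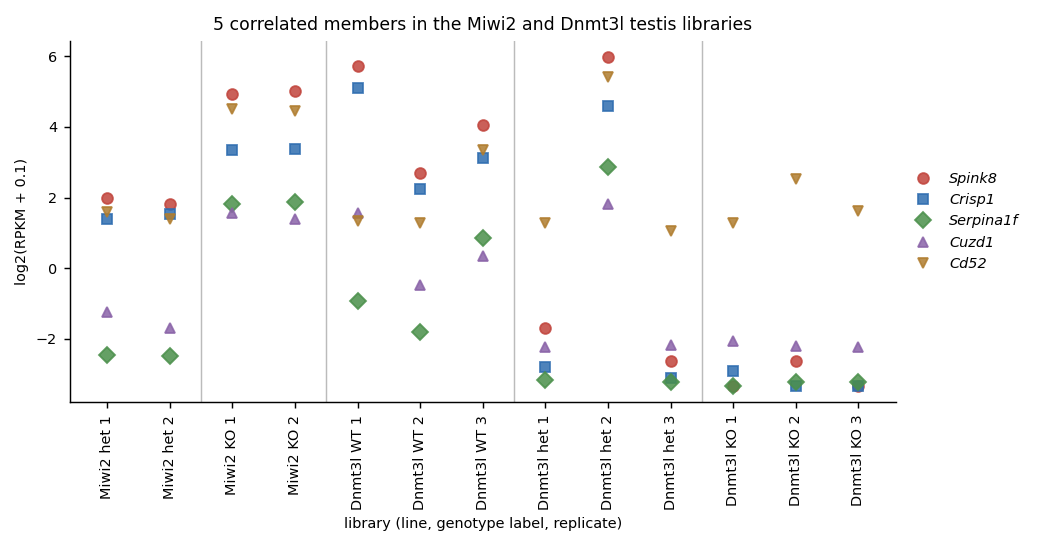
log2(RPKM + 0.1) of Spink8, Crisp1, Serpina1f, Cuzd1 and Cd52 in the 4 libraries of the Miwi2 line and the 9 of the Dnmt3l line, 1 position per library and 1 marker per gene, with vertical lines between genotype labels. All 5 genes are high in het replicate 2 of the Dnmt3l line and low in its het replicates 1 and 3, while Spink8, Crisp1 and Cuzd1 are higher in WT replicate 1 than in WT replicate 3 and Serpina1f and Cd52 are lower.

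The genes most like these 5 over the 27 testis libraries, out of 14019 genes of at least 1 RPKM in some testis library, were beta-defensins, each other and 1 carboxylesterase gene. For Serpina1f they were the carboxylesterase Ces5a (r = 0.98), Defb38 (0.98) and Defb40 (0.97). Spink8, Crisp1 and Cuzd1 each had Defb2 and Defb9 among their 3 nearest genes (r = 0.97), and Cuzd1 also had Defb11 (0.97). Defb40 was at 0 and 0.0599 RPKM under the Miwi2 het label, at 5.45 and 5.50 under the KO label, between 0 and 13.2 in the Dnmt3l controls, and at 0 in the Dnmt3l KO and Morc1 testis libraries. These are correlations across libraries that share lines and batches, so they carry no p. Such a ranking favours genes that are high in the same libraries, so the levels of Defb40 are no separate result.

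A list of 40 other epididymal secretion genes was read beside them. Of the 37 with a read in the Miwi2 line, 15 (40.5%) were higher and 9 (24.3%) were lower in both libraries labelled KO than in both labelled het, against 25.9% and 20.3% of all genes with a read. Of those higher, Wfdc15b was at 0.409 to 0.432 RPKM under the het label and 5.15 to 6.27 under the KO label, Rnase12 at 0.205 to 0.341 and 2.04 to 2.26, and the beta-defensin Defb42 at 1.42 to 1.55 and 3.85 to 4.31. Of those lower, the cystatin genes Cst12 and Cst8 were at 730.5 to 836 and 13.6 to 14.7 RPKM under the het label and at 669 to 677 and 11.3 to 11.4 RPKM under the KO label. The summed level of the list was 1126 to 1274 RPKM in het and 1044 to 1070 RPKM in KO libraries, nearly all of it Cst12 and Wfdc10. Cst12 and Wfdc10 also led the list in the Morc1 testes (sum of 756 to 1569 RPKM), where the 5 members were low. Without these 2 genes the sum was 116 to 126 RPKM in het and 124 to 135 RPKM in KO libraries. Of the segment-restricted markers, Crisp4, Rnase9 and Spag11b had no read in any of the 4 libraries. Defb15, Defb37, Defb39, Gpx5, Lcn9 and Spag11a had reads under the KO label alone, and Defb21, Lcn10 and Rnase10 under the het label alone. Of 14 genes of the duct epithelium, 9 (64.3%) were higher and 0 lower under the KO label, against the same 25.9% and 20.3%, among them the transcription factor Pax2 (0.0654 to 0.0731 against 0.195 to 0.214 RPKM). The summed level of these 14 was 29.9 to 32.0 RPKM in het and 34.7 to 36.6 RPKM in KO libraries, led by Epcam and Aqp5, and 8.16 to 8.94 and 9.81 to 10.8 RPKM without these 2 genes. Germ cells also express Epcam, and the sum was 38.2 to 133 RPKM in the sorted libraries. The part of epididymal tissue in the 5 members' values was not tested, and in whole testis fewer cells of a type and less RNA per cell cannot be told apart.

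Their family relatives were read from lists as well. In the Spink family, 4 of 9 relatives with a read (44.4%) were higher and 1 (11.1%) was lower under the KO label, against 25.9% and 20.3% of all genes, with Spink10 at 0.202 to 0.210 RPKM in het and 1.20 to 1.35 in KO libraries. In the Crisp family 4 of 9 (44.4%) were higher and 2 (22.2%) lower, and of the alpha-1 antitrypsin-like serpins 2 of 10 were higher and 0 lower. The summed level of these serpins, mostly that of Serpina5, was 76.9 to 86.6 RPKM in het and 71.9 to 78.0 RPKM in KO libraries, with overlapping ranges.

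The Dnmt3l contrast, 3 KO against 6 control libraries, was not used to choose the members. Of the 10 members, 9 passed the filter on low counts and 6 of these were called by edgeR's quasi-likelihood test with Benjamini-Hochberg adjustment, 4 lower and 2 higher in KO. In this contrast 53.9% of all 15665 genes tested were called, 29.0% lower and 24.9% higher, so a call in this contrast does not set a member apart. The 4 lower genes were Spink8 (edgeR adjusted p = 0.00749), Crisp1 (0.00746), Serpina1f (0.0202) and Cuzd1 (0.0166). The first 3 had 2 reads each over the 3 KO libraries, so they passed the filter through the controls where they are high. They are given without a fold, and their calls add no support beyond the levels above. Cuzd1 fell by 3.43 on the log2 scale (SE 1.07). Cd52 did not pass (log2 -1.42, SE 0.97, edgeR adjusted p = 0.236). With the 3 het libraries as the only controls, Cuzd1 had an edgeR adjusted p of 0.0582 and Spink8, Crisp1 and Serpina1f did not pass the filter on low counts, whereas with the 3 WT libraries alone Cuzd1 was called with an edgeR adjusted p of 0.000546. Without Dnmt3l KO replicate 1 or 2, neither Cuzd1 (edgeR adjusted p = 0.0513 and 0.0590) nor Serpina1f (0.0673 and 0.0679) passed, and without KO replicate 3 Serpina1f did not (0.0551).

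The same lists were read in the Dnmt3l contrast, where 29.0% of all genes were lower and 24.9% higher. Of the epididymal secretion genes, 17 of 40 were tested, 7 fell and 4 rose. Several of those that fell, Spink11, Spink12 and Wfdc15b among them, had 0 reads in KO and passed the filter through the controls, so nothing is read from this count. Of the duct epithelium genes 4 of 13 tested fell, near the share of all genes, and 1 rose (edgeR adjusted p under 0.05, as for all calls). The summed germ cell markers were at 993 to 1208 RPKM in the controls and 332 to 423 RPKM in KO libraries of this line, while those of Sertoli cells were at 3452 to 4686 and 5330 to 5932. The part of either in the members' values was not tested.

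Gm5506, Slc39a8 and Akd1 had a second pattern, again grouped after their values were seen. Each was higher under the Miwi2 KO label, and each was higher in every Morc1 testis library than in every Dnmt3l library. How many of all genes separate these lines in this way was not counted, so the trait is not read as particular to these genes. Akd1 also differed between the Dnmt3l genotypes. For these genes the libraries labelled Miwi2 het lay near Dnmt3l libraries, and those labelled Miwi2 KO lay nearer to Morc1 libraries. Pearson's r was 0.98 between Gm5506 and Slc39a8, 0.89 between Gm5506 and Akd1 and 0.86 between Slc39a8 and Akd1 over the 27 testis libraries. For Gm5506 and Slc39a8 these fall into 2 clusters, so the values mostly describe the gap between clusters.

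Gm5506 was at 0.119 and 0.190 RPKM (9 and 15 reads) under the Miwi2 het label and at 13.5 and 12.0 RPKM (1044 and 907 reads) under the KO label, the largest ratio of the 10. In the 9 Dnmt3l libraries it lay between 0.0356 and 0.173 RPKM. In the 14 Morc1 testis libraries it lay between 23.9 and 33.0 RPKM, higher than in every library of the other lines. No testis library had a level between 0.190 and 12.0 RPKM, and the Miwi2 KO level lay below that of all Morc1 testes. Gm5506 lies on chromosome 18 (mm9, 48204989 to 48208032, plus strand), in 2 exons. Of the 1708 windows of 50 bases, the length of the trimmed reads, in its 1757-base transcript, 76.5% were identical to Eno1 transcripts and 92.3% were within 2 mismatches of them. The authors kept reads with 1 place in the genome, so the count of Gm5506 rests on few windows and its reads and those of Eno1 could be exchanged by single variants. Eno1, the glycolytic enolase, was itself at 83.9 to 95.1 RPKM in het and 79.2 to 87.0 RPKM in KO libraries of the Miwi2 line, and the summed enolases did not move with Gm5506 (96.5 to 105 and 92.0 to 97.4 RPKM, overlapping ranges).

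Slc39a8 was at 0.915 and 0.914 RPKM under the Miwi2 het label and at 3.49 and 3.18 RPKM under the KO label. It was at 0.725, 0.811 and 1.09 RPKM in Dnmt3l WT, 0.667, 0.703 and 0.829 in het, and 1.05, 1.21 and 0.852 in KO libraries, and between 3.49 and 6.03 RPKM in the Morc1 testes. The levels thus fell into a low cluster of the Dnmt3l and Miwi2 het libraries and a high cluster of all others. Of 28 other zinc transporters and metallothioneins, 3 (10.7%) were higher and 6 (21.4%) lower under the KO label, against 25.9% and 20.3% of all genes, and one of the 3 was the zinc importer Slc39a14 (6.35 to 7.0 against 13.4 to 14.3 RPKM), which was also the gene most like Ephb1.

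**Figure D3:**
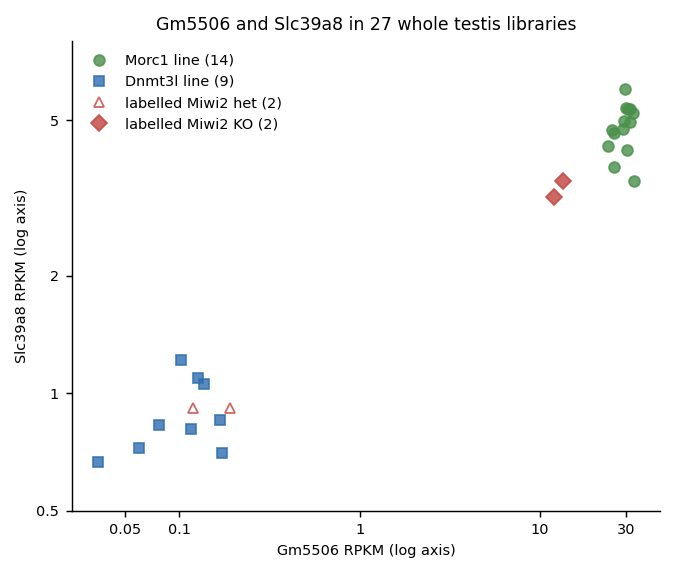
RPKM of Slc39a8 against RPKM of Gm5506 in the 27 whole testis libraries, both on logarithmic axes, with 1 point per library coloured by line. The 9 Dnmt3l libraries and the 2 labelled Miwi2 het lie below 0.2 RPKM of Gm5506, and the 14 Morc1 libraries and the 2 labelled Miwi2 KO lie above 10 RPKM.

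Akd1 was at 0.114 and 0.159 RPKM under the Miwi2 het label and at 1.90 and 2.09 RPKM under the KO label. In the Dnmt3l line the genotypes formed 3 separate steps, with 0.141, 0.108 and 0.0960 RPKM in WT, 0.323, 0.320 and 0.261 in het, and 0.548, 0.588 and 0.754 in KO libraries. Akd1 was higher in Dnmt3l KO by 1.64 on the log2 scale (SE 0.33, edgeR adjusted p = 0.00121), and it remained so against WT alone (log2 2.50, edgeR adjusted p = 3.99e-05) and het alone (log2 1.12, edgeR adjusted p = 0.00259). Akd1 lies 36.4 Mb from Dnmt3l on chromosome 10, and whether linked sequence of the strain in which the allele was made has a part in the steps was not tested. The Morc1 testes had between 0.979 and 2.33 RPKM. Its most similar genes were Sfi1 (r = 0.93), a centrosome gene with 7.57 to 9.12 RPKM under the Miwi2 het and 24.4 to 34.4 under the KO label, Gm5506 (0.89) and the kinase Mapkapk3 (0.86). Because Sfi1 was picked by this correlation, its levels are no separate result. Of 9 other adenylate and related nucleotide kinases, 0 were higher and 3 (33.3%) lower under the KO label, against 25.9% and 20.3% of all genes.

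The genes most like Gm5506 and Slc39a8, beside each other, were the phospholipase B-like gene Plbd1 (r = 0.93 and 0.94), Gm8615 (0.93 with Gm5506) and the MHC class Ib gene H2-T10 (0.93 with Slc39a8). They differed less between the Miwi2 labels than Gm5506 and Slc39a8 did. Plbd1 was at 12.4 to 13.0 RPKM under the het label and 13.0 to 14.1 under the KO label, Gm8615 at 0.0350 to 0.0731 and 0.0730 to 0.178 RPKM, and H2-T10 at 0.0892 to 0.125 and 0.110 to 0.161 RPKM, the last 2 with overlapping ranges. All 3 were higher in the Morc1 testes, at 39.9 to 76.7, 3.96 to 6.60 and 0.531 to 1.19 RPKM, than in the other lines. The choice by correlation over these libraries favours genes that are high there, so these high values are no separate result.

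Fabp4 was the single member that was lower under the KO label. It was at 20.2 and 17.2 RPKM (550 and 490 reads) under the Miwi2 het label and at 0.930 and 1.17 RPKM (26 and 32 reads) under the KO label, a ratio of 17.8. All other testis libraries resembled those labelled KO. The Dnmt3l WT libraries had 0.618, 0.554 and 1.76 RPKM, the het libraries 0.493, 0.481 and 1.32, and the KO libraries 0.803, 0.776 and 1.19, and the Morc1 testes ranged from 0.584 to 3.27 RPKM. Fabp4 thus stood apart in the Miwi2 het libraries rather than in the KO libraries, and the Dnmt3l KO and control libraries overlapped (log2 0.12, SE 0.41, edgeR adjusted p = 0.828).

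The 3 genes most like Fabp4 were adipocyte genes that were high in the same 2 libraries. Ranking by correlation favours such genes, because Fabp4 was high in these 2 libraries alone, so their high values there are no separate result. Carbonic anhydrase Car3 (r = 0.89) was at 3.69 to 4.07 RPKM under the Miwi2 het label and at 0.0604 to 0.232 under the KO label, the adipokine Adipoq (0.82) at 1.97 to 2.07 and 0.0899 to 0.158, and resistin, Retn (0.76), at 1.56 to 1.65 and 0.162 to 0.166. Without the filter on low genes, Car3 stayed among the 3 nearest and Adipoq and Retn did not. In a list of 22 genes of white fat, 11 (50%) were lower and 4 (18.2%) higher in both KO than in both het libraries, against 20.3% and 25.9% of all genes, and Cfd, the adipsin gene, was at 0.430 to 0.461 and 0 to 0.0505 RPKM. The summed level of the list was 125 to 128 RPKM in het and 129 to 135 RPKM in KO libraries, led by Fasn and Dgat2, which the testis also expresses. Without these 2 genes the sum was 46.0 to 46.9 RPKM in het and 39.5 to 40.3 RPKM in KO libraries. Each gene of the list had reads under both labels, and the part of fat tissue in the level of Fabp4 was not tested. Among the other fatty acid binding proteins, 1 of 7 with a read (14.3%) was higher and 3 (42.9%) were lower under the KO label, and the most abundant, Fabp3 and Fabp5, held nearly all of the summed 70.2 to 86.3 RPKM in het and 67.2 to 67.5 RPKM in KO libraries.

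**Figure D4:**
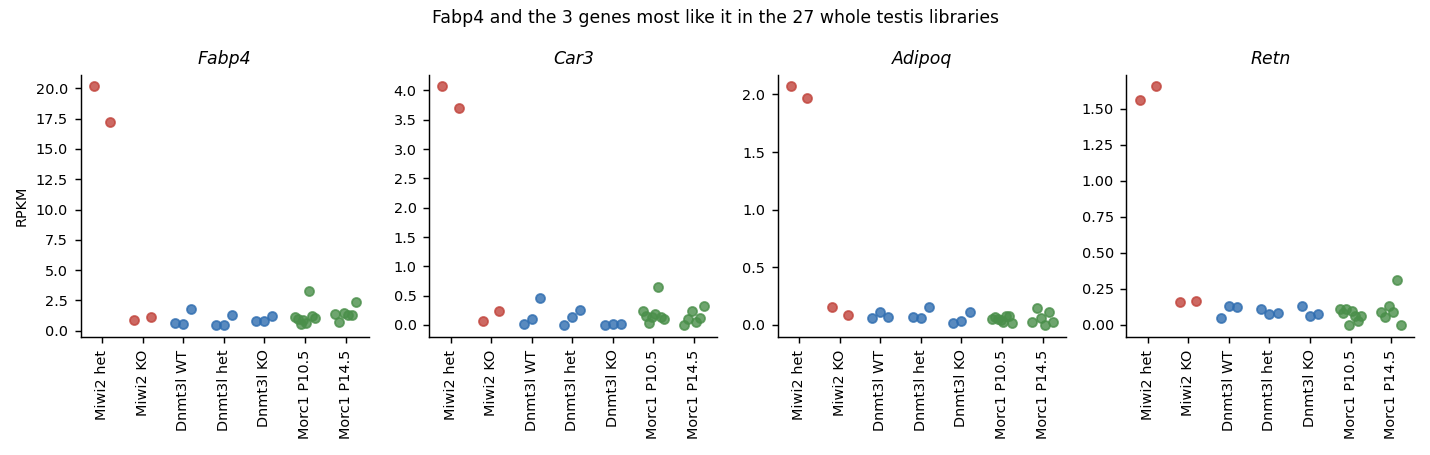
RPKM of Fabp4, Car3, Adipoq and Retn, 1 panel each with its own linear axis, in the 27 whole testis libraries by line, with genotype for the Miwi2 and Dnmt3l lines and age for the Morc1 line. Each point is 1 library. All 4 genes reach their highest values in the 2 libraries labelled Miwi2 het, and Fabp4 keeps a lower but measurable level in the others. Car3, Adipoq and Retn were picked by their correlation with Fabp4 over these libraries.

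Ephb1 had a KO over het ratio of 4.54 between the Miwi2 labels and smaller differences between genotypes in the other lines. It was at 0.998 and 1.02 RPKM under the Miwi2 het label and at 4.60 and 4.55 RPKM under the KO label. In the Dnmt3l line it was at 1.69, 1.46 and 1.44 RPKM in WT, 1.15, 1.43 and 1.65 in het, and 1.81, 2.07 and 1.73 in KO libraries. No other testis library reached the level of those labelled Miwi2 KO, and the 2 labelled Miwi2 het were the lowest of all 27. Ephb1 was higher in Dnmt3l KO than in the controls by 0.39 on the log2 scale (SE 0.12, edgeR adjusted p = 0.0175), with every KO library above every control, and without KO replicate 2 it did not pass (edgeR adjusted p = 0.0907). Besides Slc39a14 (r = 0.79), the genes most like Ephb1 were Tmem232 (0.77) and the immediate early gene Egr1 (0.76), which was at 10.1 to 10.6 RPKM under the Miwi2 het and 25.4 to 26.4 RPKM under the KO label. Without the filter on low genes, 0 of these 3 stayed among the 3 nearest. A ranking by correlation favours genes that are high where Ephb1 is high, so the levels of Egr1 are no separate result. Of 21 other Eph receptors and ephrins, 11 (52.4%) were higher and 2 (9.52%) lower under the KO label, against 25.9% and 20.3% of all genes, although their summed level differed little (92.3 to 96.7 against 99.5 to 105 RPKM). Ephb1 and Spink8 lie on chromosome 9 with Piwil4, 87.3 and 95.2 Mb from it. The RNA gene n-R5s88, on the opposite strand, overlaps Ephb1 and had at most 1 read in any testis library but up to 77 reads (41.6 RPKM) in a sorted germ cell library. Its part in the sorted cell values of Ephb1 was not tested.

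In the Morc1 line, Spink8, Crisp1, Serpina1f, Cuzd1 and Cd52 were low in both genotypes, and the share of tested members called between KO and controls was near that of all genes. At P10.5, 6 members passed the filter and 1 was called, where 15.3% of all genes were called. This was Ephb1, at 1.58, 1.67 and 1.81 RPKM in KO and 1.15, 1.38 and 1.38 RPKM in the controls (log2 0.39, SE 0.11, edgeR adjusted p = 0.0326). Every KO library lay above every control, but the call was lost with the het controls alone (edgeR adjusted p = 0.0532), under a block of replicate numbers (0.0751), and without KO replicate 2 or 3 or het replicate 2 or 3. With the het controls alone, 1 member other than Ephb1 was called, higher in KO. Slc39a8 did not pass in the main fit (log2 0.25, SE 0.10, edgeR adjusted p = 0.0938). Fabp4 was at 3.27, 1.21 and 1.09 RPKM in KO and 0.584, 0.915 and 0.663 RPKM in controls, a log2 difference of 1.30 (SE 0.44) that did not pass (edgeR adjusted p = 0.0716), while DESeq2 called it (adjusted p = 0.0224). Without KO replicate 1, the highest of the 3, the log2 difference was 0.67 (edgeR adjusted p = 0.144). In the same contrast 7 of 10 macrophage markers were higher and 0 lower, with a sum of 47.1 to 53.1 RPKM in controls and 58.0 to 77.9 RPKM in KO libraries. Of 19 germ cell markers 12 were lower and 0 higher, with a sum of 746 to 749 RPKM in controls and 474 to 543 RPKM in KO libraries. Over all genes 6.08% were higher and 9.26% lower. No marker of either list was at 0 reads, and their part in the values of Ephb1 and Fabp4 was not tested.

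At P14.5, 2 of 6 tested members were called, both higher in Morc1 KO, where 34.8% of all genes were called and 14.8% were higher. Cd52 was at 2.03, 2.33 and 2.22 RPKM in KO and 1.34, 1.55 and 1.00 RPKM in het libraries, on 14 to 34 reads each (log2 0.75, SE 0.23, edgeR adjusted p = 0.0339). Gm5506 was at 29.2, 33.0 and 28.7 RPKM in KO and 25.0, 25.7 and 23.9 RPKM in het libraries (log2 0.30, SE 0.07, edgeR adjusted p = 0.0143). For both genes the genotype groups did not overlap. The call of Cd52 was lost with DESeq2 (adjusted p = 0.144) and without KO replicate 2 or 3 or het replicate 1 or 3, and that of Gm5506 without het replicate 3 (edgeR adjusted p = 0.0539). Ephb1 was lower on average in KO at this age, at 1.46, 1.09 and 1.23 RPKM against 1.43, 1.73 and 1.71, and did not pass (log2 -0.36, edgeR adjusted p = 0.0825). In this contrast all 13 Sertoli cell markers tested were higher, with a sum of 3468 to 3839 RPKM in het and 4535 to 5574 RPKM in KO libraries. Of 19 meiotic markers 18 were lower and 0 higher, with a sum of 834 to 1114 RPKM in het and 317 to 360.2 RPKM in KO libraries, where 20.1% of all genes were lower. No marker of either list was at 0 reads, and their part in the values of Cd52 and Gm5506 was not tested.

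Between control testes of P10.5 and P14.5, when the first germ cells enter and pass through meiosis, 3 of 7 tested members were called, where 58.8% of all genes were. Akd1 rose by 0.70 on the log2 scale (SE 0.10, edgeR adjusted p = 0.000279). Cuzd1 was called higher at P14.5 (edgeR adjusted p = 0.00698), on 4, 5 and 6 reads at P10.5 and 11, 11 and 17 reads at P14.5. DESeq2 did not call it (adjusted p = 0.0621). Cuzd1 passed the filter on low counts through the P14.5 libraries, where it is higher. It is therefore given without a fold, and its call adds no support beyond these reads. Gm5506 fell by 0.22 on the log2 scale (SE 0.07, edgeR adjusted p = 0.0201), and with the het controls alone it did not pass (edgeR adjusted p = 0.0722). It also did not pass without P14.5 het replicate 1 (edgeR adjusted p = 0.0562) or 3 (0.0587) or P10.5 het replicate 3 (0.0873). Of 19 meiotic markers tested 18 rose and 0 fell with age. Of 13 Sertoli cell markers 9 fell and 2 rose, and of 11 peritubular and smooth muscle markers 7 fell and 0 rose. Over all 15395 genes tested 4564 rose and 4494 fell. The part of these cell types in the changes of Akd1, Cuzd1 and Gm5506 was not tested.

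In the sorted germ cells the levels of the members differed between stages, and Akd1 and Ephb1 had reads in every library. Cells up to P2.5 came from the cross to mixed background and were sorted in another way than those at P10.5. Stage, sort and background therefore cannot be told apart between P10.5 and the earlier stages. These libraries were made with another kit from rRNA-depleted total RNA, so their RPKM values are set beside those of testis without a test. Germ cell markers summed to 849 to 1556 RPKM and Sertoli cell markers to 31.1 to 156 RPKM in the sorted libraries, against 474 to 1610 and 3468 to 5574 RPKM in the Morc1 testes. At P10.5, the 4 het germ cell libraries lay above the 2 het testis libraries for Akd1 and Serpina1f and below them for Cd52, Fabp4, Gm5506 and Slc39a8, and the ranges overlapped for Crisp1, Cuzd1, Ephb1 and Spink8. In CPM, without scaling to the length of the gene, Ephb1 was also above. The share of all genes that lay above or below testis was not counted, so this order is not read as particular to the members. For Serpina1f the order lies at the floor. The 2 het testis libraries had 0 reads of it, and the 4 germ cell libraries 0.0235 to 0.489 RPKM. Morc1 KO testes at P10.5 reached 0.0326 RPKM.

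Akd1 was read at every stage in germ cells. It was at 0.962 to 1.22 RPKM at E16.5, 3.70 and 3.25 in het and 1.46 and 2.70 in KO cells at E18.5, and 6.24, 6.64 and 5.88 in het and 9.31 and 9.11 in KO cells at P2.5. At P10.5 it was at 3.74, 3.75, 2.91 and 3.31 RPKM in het and 4.96, 5.50 and 4.36 RPKM in KO cells. Its highest level over the stages was therefore at P2.5, with KO above het there and at P10.5 and below it at E18.5. The differences at E18.5 (log2 -0.57, SE 0.60, edgeR adjusted p = 0.984) and P2.5 (log2 0.53, SE 0.29, edgeR adjusted p = 0.968) did not pass. At P10.5, Akd1 was the 1 member called of 3 tested, where 12.2% of all genes were called (log2 0.44, SE 0.14, edgeR adjusted p = 0.0335). This call was lost without KO replicate 1 or 2 or without het replicate 1, 3 or 4. In this contrast 10 of 19 meiotic markers were lower and 0 higher, with a sum of 538 to 653 RPKM in het and 501 to 521 RPKM in KO cells. Of 13 Sertoli cell markers 4 were lower and 0 higher, with a sum of 95.8 to 156 RPKM in het and 59.6 to 123 RPKM in KO cells. Over all genes 6.43% were higher and 5.79% lower. No marker of either list was at 0 reads, and their part in the value of Akd1 was not tested.

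Ephb1 was read at every stage in germ cells, with the widest gap at P2.5. There it was at 3.63, 4.11 and 4.62 RPKM in het and 2.03 and 1.65 RPKM in KO cells, a log2 difference of -1.19 (SE 0.41) with an edgeR adjusted p of 0.968 over all genes. At P10.5 it was at 1.37, 1.11, 1.21 and 1.87 RPKM in het and 1.96, 2.27 and 1.70 RPKM in KO cells (log2 0.43, SE 0.20, edgeR adjusted p = 0.173). The groups did not overlap at P2.5 and overlapped at P10.5.

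Gm5506 had single libraries at 0 RPKM beside others near 10. It was at 2.19 to 7.42 RPKM at E16.5 and 0 to 2.62 RPKM at E18.5, at 2.41, 8.67 and 10.4 RPKM in het and 0 and 2.98 RPKM in KO cells at P2.5, and at 0.971 to 1.68 RPKM in het and 1.76, 1.70 and 3.59 RPKM in KO cells at P10.5. It did not pass at P2.5 (log2 -2.18, SE 0.94, edgeR adjusted p = 0.968) or at P10.5 (log2 0.86, SE 0.33, edgeR adjusted p = 0.0883), and the P2.5 call that edgeR made without KO replicate 2 (adjusted p = 0.0329) rests on 1 KO library with 0 reads of Gm5506, which is assumed to vary as the het libraries do. The P2.5 log2 difference of Gm5506 ran from -9.55 in that fit, a value set by the prior count, to -1.34 without KO replicate 1, the library at 0. Slc39a8 was at 1.07 to 1.78 RPKM at E16.5 and 1.25 to 3.43 RPKM at E18.5. It was at 0.443 to 0.954 RPKM at P2.5 and 0 to 0.120 RPKM at P10.5. Its lowest levels were those of the latest stage, which was also sorted in another way.

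**Figure D5:**
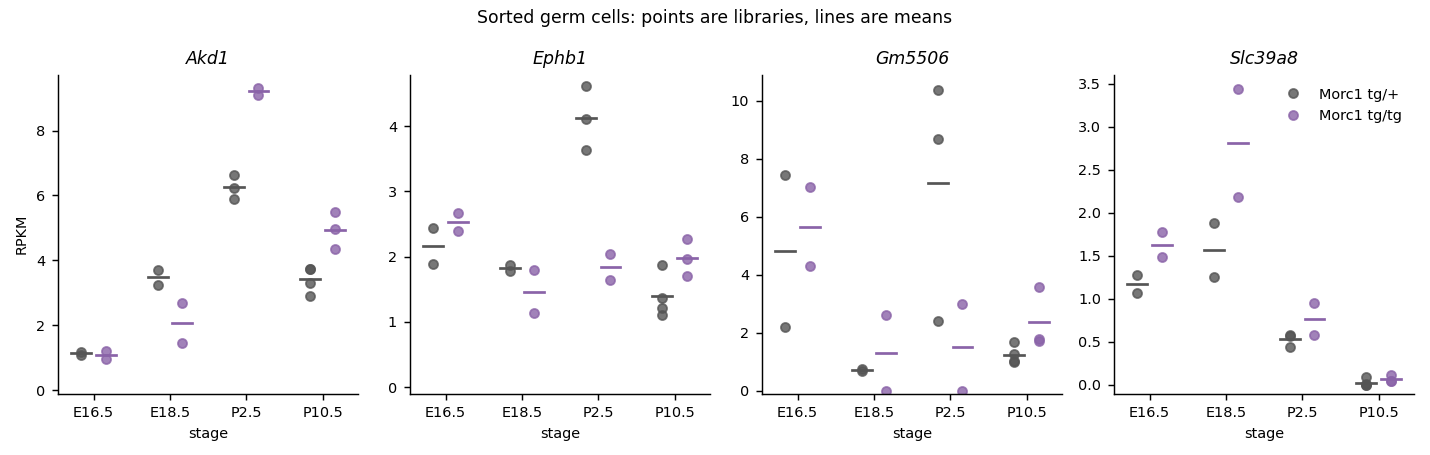
RPKM of Akd1, Ephb1, Gm5506 and Slc39a8 in sorted germ cells of the Morc1 line, from the embryonic stages E16.5 and E18.5 to P2.5 and P10.5, with 1 point per library and a line at the mean of each genotype. Akd1 peaks at P2.5, Ephb1 is lower in both tg/tg (KO) than in all 3 tg/+ (het) libraries at P2.5, and Slc39a8 is near 0 at P10.5.

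No member was called at the earlier germ cell stages, where edgeR called few genes of any kind. At E16.5, 6 members were tested and 0 called (0.421% of all genes called), 0 of them at an unadjusted p under 0.05. At E18.5, 4 were tested and 0 called (0.0416%), again 0 at an unadjusted p under 0.05, and at P2.5, 4 were tested and 0 called (0.0486%), with Ephb1 and Gm5506 at an unadjusted p under 0.05. DESeq2 likewise called 0 members at these stages. Fabp4 and Crisp1 had 0 reads in all 7 germ cell libraries at P10.5, which allows up to 0.0499 CPM (reads scaled to library size), a limit that covers counting error only. Spink8, Serpina1f, Cuzd1 and Cd52 were read at no more than 0.442, 1.34, 1.69 and 2.54 RPKM in any sorted library. Serpina1f and Cuzd1 had reads in all 4 libraries at E16.5, at 0.939 to 1.14 and 0.724 to 1.69 RPKM.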

How the data were processed

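For each of the 47 RNA-Seq libraries the authors deposited raw read counts per gene and RPKM values, with reads trimmed to 50 bases and kept where they had 1 place in mm9. The submitters' processing notes name HTSeq and Bowtie. RPKM was used as deposited for levels. Groups came from the sample labels.

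The quasi-likelihood test of edgeR 4.0.16 (R 4.3.3) was run on the counts with TMM and filterByExpr, 1 fit per comparison, and genes were called at a Benjamini-Hochberg adjusted p under 0.05 over all genes tested. This was also tested on simulated data. DESeq2 1.42.0 was an alternative, as were another normalization, no filter, het or WT controls alone, the replicate number as a block, and leaving out each library. P-values measure the spread between libraries of 1 mouse each. Each SE is the size of the log2 fold change divided by the square root of edgeR's F statistic, not an error taken from the fit.

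The members and gene lists were chosen with earlier results of these data known. Named genes were the members, the targeted genes, the 3 genes most like each member by Pearson's r of log2(RPKM + 0.1), and up to 4 abundant and 4 called genes of each list. The small RNA, bisulfite, chromatin and accessibility samples were not analysed here. Columns of other series numbered 0. Libraries of 1 group, and main and preliminary libraries of 1 genotype, differed beyond sampling noise (lowest median chi-square per gene 1.37 over genes of at least 20 reads), so none of these was counted as a copy.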

Additional observations from a re-analysis of the deposited data

Results flagged for a closer look

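Among 18 sets of 4 to 10 libraries, 3 held a library that lay far from the rest, where chance gives about 1 in 20. Within the 6 Dnmt3l controls, het replicate 2 stood alone for Serpina1f (7.15 RPKM) and for Cd52 (42.2 RPKM). These flags are of the same library, and the genes were correlated over the testis libraries (r = 0.89). Among the 4 Morc1 het germ cell libraries at P10.5, 1 stood alone for Cd52 (0.518 RPKM, on 4 reads). The others had 0 reads, so any read would have set a library apart.

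In 4 pairs of stages, every Morc1 KO library lay on one side of the controls, the preliminary libraries left out, at 1 stage and on the other side at another. None of these differences between stages was tested. How many of all genes change sides in this way was not counted. Groups of so few libraries can separate without a difference in genotype, so the pairs are not read as particular to the members. For Fabp4, the mean difference, KO minus control, was 1.14 RPKM in P10.5 testis and -2.71 RPKM in E18.5 germ cells. The first rests mostly on KO replicate 1 (3.27 RPKM, against 1.21 and 1.09 RPKM in the other KO libraries, while the preliminary WT library was at 1.12 RPKM), and the second on het libraries of 0.713 and 4.71 RPKM, with 3 and 23 reads, where Fabp4 did not pass the filter on low counts. For Ephb1 it was 0.381 RPKM in P10.5 testis and -2.28 RPKM in P2.5 germ cells. For Akd1 it was 1.51 RPKM at P10.5 and 2.96 RPKM at P2.5 in germ cells, and -1.40 RPKM in germ cells at E18.5. The P2.5 and E18.5 differences of Akd1 and the P2.5 difference of Ephb1 did not pass in edgeR.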

How the results depend on the processing

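Over 22 results of single members with an unadjusted p under 0.05, 260 values under alternatives kept their direction, and 217 also kept their side of the threshold, 31 lost the call and 12 gained it. Fits in which a member did not pass the filter were not counted, as for Spink8, Crisp1 and Serpina1f with Dnmt3l het controls only. The 22 results include the Dnmt3l calls of these genes and the call of Cuzd1 with age, which add no support. Genes called in the Miwi2 contrast numbered 197, 406 with DESeq2, and 340 to 952 when 1 library was left out. DESeq2 gave the members no adjusted p there. In the Dnmt3l contrast 6 members were called, 3 with het controls only, and 3 to 7 when 1 library was left out, 3 without KO replicate 2. In Morc1 testis at P10.5, 2326 genes were called (922 to 2352 with 1 library left out) and 1 member, 2 with DESeq2 or without the filter and 0 to 1 with 1 library left out. At P14.5, 5323 genes were called (3517 to 5001 with 1 library left out) and 2 members, 1 with DESeq2 and 0 to 2 with 1 library left out.

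At E16.5, 70 genes were called, 110 with DESeq2, 180 without the filter and 74 to 171 with 1 library left out. At E18.5 the numbers were 6, 296, 83 and 0 to 190, and at P2.5 they were 7, 21, 27 and 0 to 70, with 0 to 1 members. In P10.5 germ cells, 0 to 1 members were called with 1 library left out, and 2 to 4 in the comparison of ages.

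The replicate number as a block gave 4503 genes in the Miwi2 contrast, 1200 genes and 0 members in P10.5 testis, and 174, 46 and 30 genes at E16.5, E18.5 and P2.5. In the comparisons with 3 or more pairs, the highest r between same-numbered libraries was 0.46, in P14.5 testis, where the others were 0.03 and -0.20. The block is therefore not read as a pairing there. For Miwi2 r was 0.59 over 2 pairs, too few to decide whether its libraries are paired. Low reads limit Crisp1, Spink8 and Serpina1f in Dnmt3l KO. The cause of these shifts was not tested. Of the 3 genes nearest to each member, 24 of 30 were shared with a pseudocount of 1 and 23 without the filter on low genes, where Ephb1 shared 0 and Fabp4 1 of its 3.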
